A study of Mus musculus with 4 samples.

Results

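The genes described here are 56 genes of mitosis, which build the spindle and the kinetochores, drive and time the division, and separate the daughter cells. A gene was a member if it was on a list of 56 symbols and the arrays carried a probe with that symbol as its gene name, and Fam64a, now called Pimreg, was taken under its older name. In all, 78 probes carried a member's name, out of 55681 probes on the arrays. Of these 78, 73 were well above background on at least 1 array and measured 55 of the 56 members, out of 16657 named genes measured in the same way. The remaining member, Aurkb, which encodes the kinase of the chromosomal passenger complex, had 1 probe that was not well above background on any of the 4 arrays, and it has no value below.

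Cardiac mesenchymal progenitors (CMPs) are Sca-1+ cells isolated from the atria of adult wild-type C57BL/6 mice and expanded on collagen I with serum and bFGF. The CMP control was untreated and is set at day 0 here. OSKM-CMPs had been transduced with Sendai viruses carrying Oct4, Sox2, Klf4 and c-Myc, moved to reprogramming medium without leukemia inhibitory factor, and sampled on days 4, 6 and 8. RNA of each condition was hybridised to 1 single-colour Agilent array (4 arrays in all), so no difference between conditions could be tested and no p-value is given. Because the control has 1 time point, the factors, the virus, the medium and the time in culture cannot be told apart. The sources used here do not say whether the 4 samples came from 1 isolation of cells or from several.

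At each division a cell condenses its chromosomes, attaches them to spindle microtubules through kinetochores, waits until all are attached, pulls the sister chromatids apart and divides its cytoplasm between them. The kinase Cdk1 with its cyclins starts this sequence, Plk1 and the Aurora kinases run it, the spindle assembly checkpoint delays anaphase, and the anaphase-promoting complex ends it by marking cyclins and securin for destruction. Most of these genes are transcribed late in the cell cycle, from promoters that carry a CHR element (cell cycle genes homology region) and CCAAT boxes. The CHR element is bound by the MuvB core, which is part of a repressor (DREAM) in resting cells and of an activator with B-Myb and Foxm1 in dividing cells, and CCAAT boxes are bound by NF-Y. Mitotic transcripts are therefore known to be abundant in dividing cultures and scarce in resting or differentiated cells.

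The promoters of 8 members are shown because they span the largest falls and the exceptions described below. The first 5 belong to the members with the largest falls at day 8 among those with CHR letters in the stretch shown, and the last 3 to the members with a rise or the smallest falls among those with a promoter window. Each runs 5′ to 3′ from 100 bases before the annotated transcript start to 30 bases after it, from RefSeq on GRCm38.p6. Capitals mark the letters of the CHR element (TTTGAA or TTCGAA) and of the CCAAT box on either strand, so that TTCAAA and ATTGG are the same words read on the other strand.
Kif22: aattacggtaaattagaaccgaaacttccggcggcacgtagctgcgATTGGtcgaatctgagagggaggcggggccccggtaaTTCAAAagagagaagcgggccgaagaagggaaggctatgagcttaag
Cenpa: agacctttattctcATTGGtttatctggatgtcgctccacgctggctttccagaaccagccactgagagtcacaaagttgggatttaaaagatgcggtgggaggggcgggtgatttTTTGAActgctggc
Cdc20: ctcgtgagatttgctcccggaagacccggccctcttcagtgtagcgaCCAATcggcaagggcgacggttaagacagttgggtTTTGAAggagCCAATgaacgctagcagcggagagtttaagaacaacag
Cdca8: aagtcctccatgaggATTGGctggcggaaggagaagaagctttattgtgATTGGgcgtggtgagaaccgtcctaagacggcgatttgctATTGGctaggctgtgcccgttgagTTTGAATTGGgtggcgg
Ccnb2: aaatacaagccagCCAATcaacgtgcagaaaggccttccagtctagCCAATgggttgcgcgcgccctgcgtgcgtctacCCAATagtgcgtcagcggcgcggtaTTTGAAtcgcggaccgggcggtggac
Psrc1: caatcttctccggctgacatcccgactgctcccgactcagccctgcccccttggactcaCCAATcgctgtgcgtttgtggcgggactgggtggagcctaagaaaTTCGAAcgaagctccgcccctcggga
Cdc25b: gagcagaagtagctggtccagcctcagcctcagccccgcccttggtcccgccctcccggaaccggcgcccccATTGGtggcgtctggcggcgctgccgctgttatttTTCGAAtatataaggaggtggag
Pttg1: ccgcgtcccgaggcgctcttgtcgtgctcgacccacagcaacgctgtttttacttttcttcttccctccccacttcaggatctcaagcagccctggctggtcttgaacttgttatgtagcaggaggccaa
These windows lie at chr7:127042391-127042520 (- strand) for Kif22, chr5:30666786-30666915 (+ strand) for Cenpa, chr4:118437314-118437443 (- strand) for Cdc20, chr4:124936888-124937017 (- strand) for Cdca8, chr9:70421525-70421654 (- strand) for Ccnb2, chr3:108383704-108383833 (+ strand) for Psrc1, chr2:131186848-131186977 (+ strand) for Cdc25b and chr11:43425952-43426081 (- strand) for Pttg1. Counted from the transcript start as base 1, the CHR letters began at base -17 in Kif22, 17 in Cenpa, -18 in Cdc20, 14 in Cdca8, 5 in Ccnb2, 5 in Psrc1 and 8 in Cdc25b. In Cdca8 the last CCAAT box shares letters with the CHR element. The window of Pttg1 held neither set of letters.

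The values below are log2 levels: the log2 of a probe's processed Cy3 signal minus the log2 of the 75th percentile of its array, averaged over the probes of a gene that were well above background on at least 1 array. A difference of -1 is a 2-fold lower signal. The ± after a difference is 1 SD from the error model of the scanner software, which covers the array alone and neither cultures nor RNA preparation. It was 0.20 for the median member at day 8. A probe's level is set only against the same probe on another array, since the brightness of different probes does not compare.

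Nearly all of the mitotic genes had lower signal in OSKM-CMPs than in the CMP control, and the signal was lower again at each later day. Against the control, the median change of the 55 measured members was -1.21 by day 4, -1.84 by day 6 and, at 4.67-fold lower, -2.22 by day 8. Over all 16657 genes the medians were -0.01, -0.04 and -0.03. At day 4, 38 of the 55 members were at least 2-fold lower, against 9.57% of all genes. At day 6 this held for 48 members, against 11.5% of all genes, and at day 8 for 51, against 11.7%. At least 4-fold lower at day 8 were 36 members, against 4.48% of all genes, and at least 8-fold lower were 13, against 1.79%. In the other direction, 1 member, Psrc1, was at least 2-fold higher at day 8, against 14.4% of all genes. Of all genes that had changed at least 2-fold at day 8, 44.8% were lower, and with the array median as the scale 59.9% were, since that scale moves the median of all genes by -0.14, -0.13 and -0.27 on the 3 days. In bulk RNA, fewer dividing cells and less mitotic RNA per cell cannot be told apart.

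**Figure D1:**
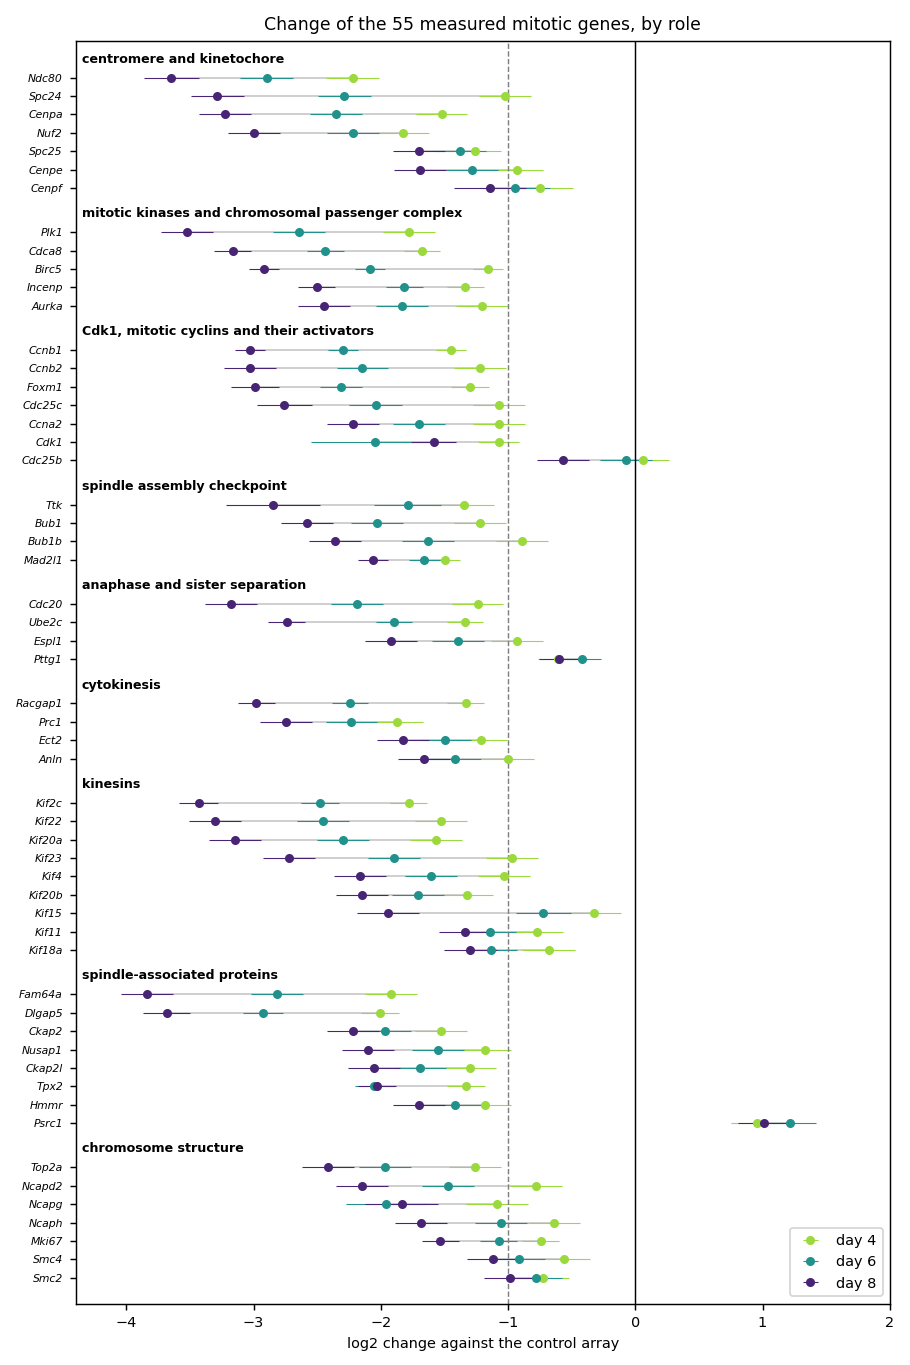
Each row is 1 of the 55 measured mitotic genes, grouped by role, and the points give the log2 change from the CMP control array to day 4, 6 or 8 (1 array each, bars 1 SD of the scanner software's error model, dashed line 2-fold lower). At day 8, 54 of the 55 genes lie left of 0 and Psrc1 lies right of it at 1.01. Of all 16657 genes, 8620 were lower at day 8.

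The medians of the roles differed at day 8, though the members of most roles overlapped in range. Kinetochore genes ran from -3.65 to -1.14 and chromosome structure genes from -2.42 to -0.98. Centromere and kinetochore genes had the lowest median, -3.00 over 7 members, followed by the mitotic kinases with the chromosomal passenger complex at -2.92 over 5 and by Cdk1, the cyclins and their activators at -2.76 over 7. Checkpoint genes (4) had a median of -2.47, anaphase genes (4) -2.33, cytokinesis genes (4) -2.29, kinesins (9) -2.16 and spindle-associated proteins (8) -2.08. Chromosome structure genes, which are condensin I, Top2a and Mki67, had the smallest median change, -1.69 over 7 members. Without a filter on dim probes the kinetochore median was -1.70, with Nuf2 then averaged over 3 probes instead of 1. Under each of the 8 alternative settings every role kept a negative median, but the order of the roles was not fixed. With normexp correction and quantile normalization, the cytokinesis median was lower than those of the Cdk1, checkpoint and anaphase roles.

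**Figure D2:**
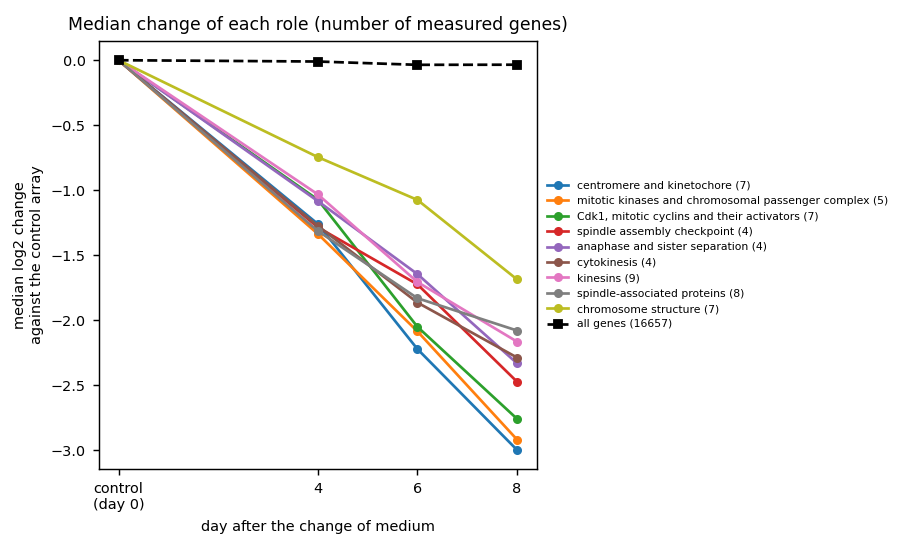
The lines give the median log2 change of each role against the CMP control array (vertical axis) by day (horizontal axis, the untreated control set at day 0), with the number of measured genes in the legend and all 16657 genes as a dashed line. The 9 roles end between -3.00 and -1.69 at day 8, while the median of all genes ends at -0.03.

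Among the genes that start mitosis, both B-type cyclins were about 8-fold lower at day 8, Ccnb1 as the mean of 3 probes. Ccnb1, the main mitotic cyclin, went from a level of 1.90 in the control to 0.45, -0.40 and -1.13 on days 4, 6 and 8, a change of -3.03 ± 0.12 and 8.16-fold lower. Its brightest probe changed by -2.41 and the others by -3.38 and -3.30, a range of 0.97 that is wider than this error. Ccnb2, another B-type cyclin, went from 4.78 to 3.56, 2.63 and 1.75, also a change of -3.03 ± 0.20. Foxm1, a transcription factor of late cell cycle genes, went from 0.29 to -1.01, -2.02 and -2.70, a change of -2.99 ± 0.19. In all 3 genes each array was lower than the one before. Cdc25c, a phosphatase that activates Cdk1, changed by -2.76 at day 8 and Ccna2, the S and G2 phase cyclin, by -2.22.

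Cdc25b, a related phosphatase that acts earlier, at the centrosome, was the exception in this role. Its levels were 2.21, 2.27, 2.14 and 1.64 on the control and the day 4, 6 and 8 arrays. Against the control it changed by 0.06 ± 0.20 at day 4, a value within the error whose sign is negative with the array median as the scale, and by -0.57 ± 0.20 at day 8.

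Of the mitotic kinases, Plk1 had the largest change, with levels of 5.27, 3.49, 2.63 and 1.75 and an 11.5-fold lower signal at day 8 (-3.52 ± 0.20). Aurka, the centrosomal Aurora kinase, changed least in this role, from 4.08 to 2.87, 2.24 and 1.63 (-2.45 ± 0.20). The chromosomal passenger complex carries Aurora B to centromeres and later to the midzone, and its 3 measured partners were all lower at day 8. Cdca8 (borealin) changed by -3.16 ± 0.14 at day 8, Birc5 (survivin) by -2.92 ± 0.12 and the scaffold Incenp by -2.50 ± 0.14, and Cdca8 and Incenp differed by 0.66 ± 0.20.

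All 4 checkpoint genes were at least 4-fold lower at day 8, against 4.48% of all genes, but with normexp correction and quantile normalization the changes of Mad2l1 and Ttk were -1.71 and -1.08, short of 4-fold. Bub1, a kinase at the kinetochore, went from 1.28 in the control to 0.06, -0.76 and -1.31 (-2.58 ± 0.20), and its relative Bub1b (BubR1) from 1.38 to 0.48, -0.26 and -0.99 (-2.36 ± 0.20). Mad2l1, which holds back Cdc20, went from 1.14 to -0.35, -0.51 and -0.92 (-2.06 ± 0.12), and most of that change, 72.6%, was present at day 4. Ttk (Mps1), the kinase that starts checkpoint signaling, was not well above background at day 8, so its change there is uncertain. With the normalization used here that change was -2.85 ± 0.37, or 7.21-fold lower than in the control, against -1.08 under the alternative. On the earlier arrays Ttk stood at -2.00 in the control, -3.35 at day 4 and -3.79 at day 6.

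Genes of anaphase split. Cdc20, which activates the anaphase-promoting complex, went from 5.69 to 4.45, 3.50 and 2.51 (-3.18 ± 0.20, 9.04-fold lower). Ube2c, the ubiquitin-conjugating enzyme of that complex, went from 4.12 to 2.78, 2.23 and 1.38 (-2.74 ± 0.14), and Espl1, the protease separase, from 0.58 to -0.35, -0.82 and -1.34 (-1.92 ± 0.20). Pttg1 (securin), the inhibitor of separase, changed by -0.60 ± 0.15 as the mean of 2 probes that differed, as described below.

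The Ndc80 complex is the part of the kinetochore that grips microtubules, and the signals of its 4 subunits were not lower by the same amount. Each subunit rests on 1 probe in use, and probes of a single gene could differ by more than 1, as described below. Whether the differences in size and timing lie in the probes was not tested. Ndc80 itself went from 0.79 to -1.44, -2.11 and -2.86, a 12.5-fold lower signal (-3.65 ± 0.21), and its partner Nuf2 changed by -3.00 ± 0.20. At the other end of the complex, Spc24 went from 1.24 to 0.22, -1.05 and -2.05 (-3.29 ± 0.21), while Spc25 went from 5.45 to 4.19, 4.07 and 3.75 (-1.70 ± 0.20). Ndc80 and Spc25 differed by 1.95 ± 0.30 at day 8. The timing of Spc24 and Spc25 also differed, with 31.1% of the day 8 change of Spc24 present at day 4 and 74.1% of that of Spc25. Cenpa, the histone H3 variant that marks centromeres, went from 3.30 to 1.77, 0.94 and 0.07 (-3.23 ± 0.20), and the kinetochore motor Cenpe changed by -1.69 ± 0.20. Cenpf, a large outer kinetochore protein, had the smallest change of the role, from -3.06 to -3.81, -4.00 and -4.20 (-1.14 ± 0.28), and normexp background correction with quantile normalization left -0.41 of it.

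All 9 kinesins were at least 2-fold lower at day 8, against 11.7% of all genes. Kif2c (MCAK), which depolymerises microtubules at centromeres, went from 0.21 to -1.58, -2.27 and -3.23 (-3.43 ± 0.15, 10.8-fold lower). Kif22 (Kid), which pushes chromosome arms to the equator, went from 3.87 to 2.34, 1.42 and 0.57 (-3.31 ± 0.20), and Kif20a, a motor of the anaphase midzone, from 4.33 to 2.77, 2.03 and 1.19 (-3.14 ± 0.20). The smallest change was that of Kif18a, which damps chromosome movement at the plate, from -0.45 to -1.13, -1.59 and -1.75 (-1.30 ± 0.21). Kif15, a spindle motor that can stand in for Kif11, had the latest change of all members that were at least 2-fold lower, since 16.7% of its day 8 change was present at day 4. Its levels were -1.94, -2.27, -2.67 and -3.89, and the step from day 6 to day 8 was -1.22 ± 0.25.

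The largest change of any member was found among the spindle-associated proteins. Fam64a (Pimreg), a mitotic regulator that binds the clathrin adaptor CALM, went from 2.91 to 0.99, 0.09 and -0.93, a 14.3-fold lower signal (-3.84 ± 0.20). Dlgap5 (HURP), which stabilises kinetochore fibres, went from -0.18 to -2.18, -3.10 and -3.86 (-3.68 ± 0.18, 12.8-fold lower). Ckap2, a microtubule-associated protein, went from 2.62 to 1.09, 0.66 and 0.40 (-2.22 ± 0.20). The related Ckap2l, and Nusap1 and Hmmr, which bundle or anchor spindle microtubules, had changes of -2.05, -2.10 and -1.70.

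Psrc1, a microtubule-associated protein of the same role, was the 1 member with higher signal at day 8. Its level was 2.30 in the control and 3.25, 3.51 and 3.31 on days 4, 6 and 8, so every OSKM-CMP array was above the control. The change was 0.96 ± 0.20 at day 4 and 1.01 ± 0.20 at day 8. It rests on 1 probe, at chr3:108190744-108190803 on mm9, and it was positive under all 8 alternative settings, between 1.01 and 1.12 once the shift of all genes under the array median is taken out (0.75 with that shift).

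Cytokinesis genes were all at least 2-fold lower at day 8, against 11.7% of all genes. Racgap1, which with the kinesin Kif23 forms centralspindlin, went from 3.36 to 2.03, 1.12 and 0.38 (-2.98 ± 0.14). Kif23 changed by -2.72 ± 0.21, and the difference between these partners, 0.25 ± 0.25, was about the size of its error. Prc1, which bundles midzone microtubules, went from 5.23 to 3.35, 2.99 and 2.48 (-2.75 ± 0.20), Ect2, which activates RhoA at the furrow, from 2.58 to 1.37, 1.08 and 0.76 (-1.82 ± 0.20), and Anln (anillin), a scaffold of the contractile ring, from 4.74 to 3.74, 3.32 and 3.08 (-1.66 ± 0.20).

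Among the genes of chromosome structure, Top2a, the topoisomerase that untangles sister chromatids, went from 2.54 to 1.28, 0.57 and 0.12 (-2.42 ± 0.20). The subunits of condensin I, which compacts chromosomes, changed by unequal amounts, each measured by 1 probe, and a probe effect was not tested. Its regulatory subunits Ncapd2, Ncapg and Ncaph changed by -2.15 ± 0.20, -1.84 ± 0.28 and -1.69 ± 0.20, and the core ATPases Smc2 and Smc4, which also belong to condensin II, by -0.98 ± 0.20 and -1.12 ± 0.20. Ncapd2 and Smc2 differed by 1.17 ± 0.29. Ncapg was dim, with levels of -2.38, -3.46, -4.34 and -4.22, and its change was -0.80 after normexp correction with quantile normalization. Among the other named members, that setting moved the day 8 change by more than 1.5 times for Foxm1, to -1.99, Dlgap5, to -2.24, and Pttg1, to -0.28, besides Ttk and Cenpf above. Mki67, the widely used proliferation marker, went from 4.73 to 3.99, 3.66 and 3.20 (-1.53 ± 0.14), a smaller change than the median member.

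The median member declined by about the same amount in each of the 2 later steps. The first step gave a similar rate per day if the untreated control is set at day 0. The median step of the members was -1.21 from the control to day 4, -0.57 over the 2 days from day 4 to day 6 and -0.56 over the 2 days from day 6 to day 8. With 4 days counted for the first step, this is -0.30, -0.29 and -0.28 per day. Because the control was untreated, the first step also spans the difference in treatment, and its length in days is an assumption. Single roles were less even: the median step per day was -0.33, -0.21 and -0.16 for spindle-associated proteins, -0.26, -0.29 and -0.41 for kinesins, and -0.27, -0.46 and -0.34 for Cdk1, the cyclins and their activators. In turn, 49 of the 55 members were lower at each of the 3 steps, against 16.0% of all genes. From day 4 to day 8, 31 members went at least 2-fold lower, against 4.11% of all genes. Within a single later step few did. From day 4 to day 6 they were Spc24 and Foxm1, 2 of the 55 members, a share near the 2.65% of all genes. From day 6 to day 8 they were Kif15, Ttk and Fam64a, 3 of the 55 against 1.01% of all genes. The 6 members that were not lower at every step were Psrc1, Cdc25b and Ncapg, together with Cdk1, Tpx2 and Pttg1, the 3 whose probes differed.

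By day 4 the members, like the larger related lists given below, had reached a smaller share of their day 8 change than most genes that ended low. Of the 51 members at least 2-fold lower at day 8, the median had 50.3% of its day 8 change at day 4, with a range from 16.7% for Kif15 to 74.1% for Spc25, and 75.3% at day 6. Over all 1941 genes at least 2-fold lower at day 8, the median was 76.5% at day 4 and 92.6% at day 6, and all 51 members were below that 76.5%. By role, the share present at day 4 was 63.4% for cytokinesis genes, 63.2% for spindle-associated proteins, 60.8% for kinetochore genes and 45.7% for Cdk1, the cyclins and their activators. By rank, no member was among the 100 genes with the largest falls at day 8. The ranking includes genes at background at day 8, such as Cdh5, whose falls are uncertain in size. The 200 largest falls, which are 1.20% of all genes, held 5 members (9.09% of those measured), and the 500 largest, 3.00% of all genes, held 24 (43.6%).

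**Figure D3:**
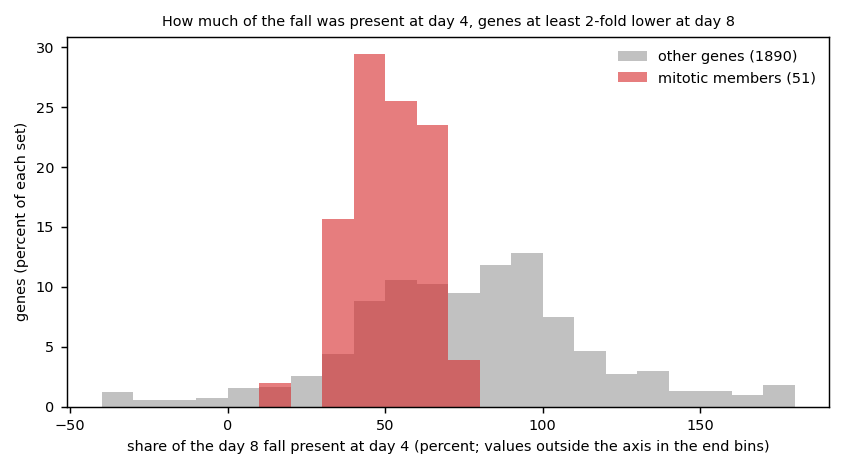
For genes at least 2-fold lower at day 8, the horizontal axis gives the percent of the day 8 change that was present at day 4 and the vertical axis the percent of each set (51 mitotic members, 1890 other genes). The members lie between 16.7% and 74.1%, and the other genes spread further, many of them near 100%. The other genes include some that were at background from day 4 on.

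For 14 members with several probes in use, the probes could be compared. In 10 of them the day 8 changes lay within 0.5 of each other, and in 3 they differed by more than 1. Cdk1, the kinase at the start of mitosis, had 3 probes, at chr10:68801072-68801131, chr10:68801053-68801112 and chr10:68799513-68799572 on mm9. The first had levels of 2.74, 1.07, 0.39 and -0.13, a change of -2.86 ± 0.20. The second, which shares 41 bases with the first, was well above background on the control array alone. The third, 1559 bases from the first, had levels of -3.06, -2.88, -2.85 and -2.76, a change of 0.30 ± 0.23. The gene mean of Cdk1, -1.59 at day 8, therefore mixes a probe that changed like the cyclins with a probe that did not.

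Tpx2, which activates Aurora A on the spindle, had a probe at chr2:152719476-152719535 with levels of 3.33, 1.75, 0.98 and 0.47 (-2.86 ± 0.20). Its other probe, 809 bases away, had levels of -1.34, -2.41, -3.08 and -2.54 (-1.20 ± 0.21). Pttg1 had a bright probe at chr11:43233801-43233860 whose change was within its error, with levels of 4.63, 4.57, 4.66 and 4.54 (-0.09 ± 0.20), and a dim probe 761 bases away with levels of -2.29, -3.46, -3.16 and -3.41 (-1.12 ± 0.22). These positions are on mm9, as in the array files, and not on the build of the promoters.

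**Figure D4:**
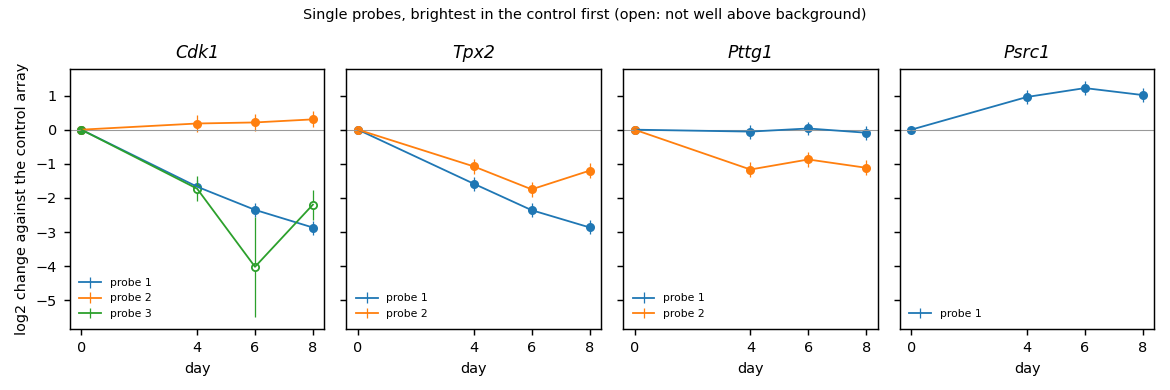
Each line is 1 probe of Cdk1, Tpx2, Pttg1 or Psrc1, with the log2 change against the CMP control array on the vertical axis and the day on the horizontal axis, the untreated control set at day 0 (bars 1 SD of the scanner software's error model, open points not well above background). The brightest probes of Cdk1 and Tpx2 end at -2.86, that of Pttg1 at -0.09 and the Psrc1 probe at 1.01.

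Other genes of the same pathways were taken from fixed lists. The share of all genes to read their day 8 counts against is again 11.7% at least 2-fold lower. Of 26 other kinetochore genes, 16 were at least 2-fold lower at day 8, with a median change of -1.34. Ska1, which holds kinetochores on microtubule ends, changed by -3.13 ± 0.21 and Cenph, an inner kinetochore protein, by -2.66 ± 0.20. Of 34 other spindle, centrosome and cytokinesis genes, 25 were at least 2-fold lower, with a median of -1.99. Cdca3 changed by -3.27 ± 0.20, Troap by -3.21 ± 0.25, and the centrosome scaffold Pcnt by 0.12 ± 0.20, a value within its error that is negative with the array median as the scale. With normexp correction and quantile normalization, Troap changed by -1.84. Both inhibitory kinases of Cdk1 were lower as well, Pkmyt1 by a change of -2.62 ± 0.20 and Wee1 by -1.15 ± 0.20. The 30 genes of replication licensing and the fork had a median of -1.71, and 24 of them were at least 2-fold lower, among them Chaf1b (-2.74 ± 0.14) and Mcm5 (-2.71 ± 0.20). Among genes at least 2-fold lower at day 8, the 24 replication genes had reached 48.1% of their day 8 change by day 4 in the median. The 16 other kinetochore genes had reached 50.3% and the 25 other spindle, centrosome and cytokinesis genes 52.5%, near the 50.3% of the members.

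The anaphase-promoting complex and cohesin, which work on the same chromosomes but serve cells outside mitosis too, had medians nearer to that of all genes than to that of the members. Of 15 subunits and regulators of the anaphase-promoting complex, 3 were at least 2-fold lower at day 8, against 11.7% of all genes, and the median change was -0.36, or -0.15 with normexp correction and quantile normalization. The lowest in the list were its inhibitor Fbxo5 (-2.25 ± 0.20) and its E2 enzyme Ube2s (-1.37 ± 0.20), and the subunit Cdc26 was at 0.40 ± 0.14. Of 11 cohesin genes, 1 was at least 2-fold lower, a share near the 11.7% of all genes, and the median was -0.12. That gene was Esco2 (-1.96 ± 0.22), the S phase acetyltransferase, while the ring subunit Smc1a changed by -0.79 ± 0.20 and the regulator Pds5b by 0.81 ± 0.13. With normexp correction and quantile normalization Esco2 changed by -1.22 and Pds5b by 0.46, and the brightest probe of Pds5b changed by 0.15. Of the 3 condensin II subunits, 2 were at least 2-fold lower and the median was -1.19, with Ncapd3 at -1.31 ± 0.15 and Ncapg2 at -1.19 ± 0.20.

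A promoter window was found for 45 of the 56 members, from 250 bases before to 50 after a RefSeq transcript start. The members without one were Ccna2, Cdc25c, Foxm1, Aurkb, Incenp, Spc24, Kif20a, Tpx2, Dlgap5, Fam64a and Smc4. The letters of the CHR element, TTTGAA or TTCGAA on either strand (TTCGAA reads the same on both), were in the windows of 36 members (80.0%), against 21.7% of the 27025 genes of the table and 17.1% of the 13006 genes with a window that the arrays measured. Within 50 bases of the start they were found in 32 members (71.1%), against 6.12% of all genes of the table. The CCAAT letters, searched on both strands, were in 33 members (73.3%) and in 41.1% of all genes. Letters like those of E2F sites (the word TTCCCGC, the word TTCGCGC, the word TTGCCGC or the word TTGGCGC, both strands) were in 10 members (22.2%) and in 10.9% of all genes. For the replication genes the balance was the other way, with the E2F-like letters in 72.0% of 25 windows and the CHR letters in 24.0%.

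**Figure D5:**
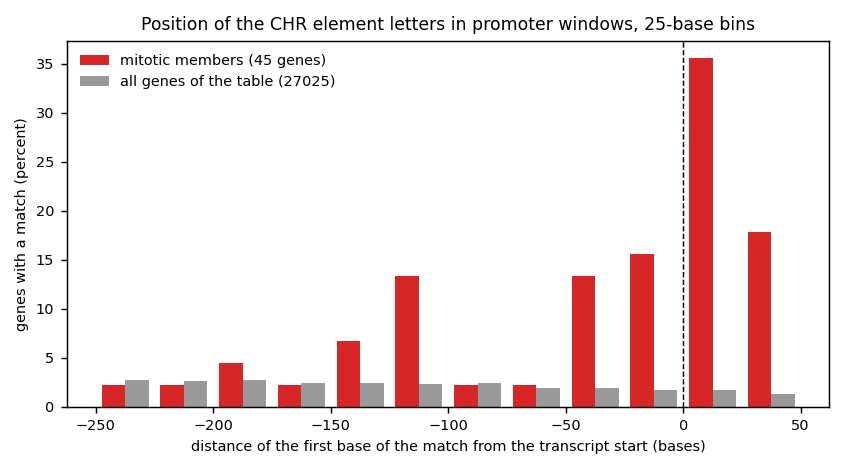
The bars give the percent of genes with CHR letters whose first base lies in each 25-base bin around the transcript start, for 45 mitotic members and for all 27025 genes of the promoter table. The members reach 35.6% in the bin just after the start, where all genes are at 1.68%.

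Within the members, the changes were set against the presence of these letters, with no test. The median change at day 8 was -2.26 for the 32 members with CHR letters within 50 bases of the start and -2.10 for the 13 without. The less common word, TTCGAA, was in the windows of 5 members, Bub1, Bub1b, Top2a, Cdc25b and Psrc1, whose day 8 changes were -2.58, -2.36, -2.42, -0.57 and 1.01. Psrc1 and Cdc25b, with a higher signal and with a change of -0.57, both carry the letters close to the start, as the sequences above show. Pttg1, at -0.60 as the mean of a bright probe at -0.09 and a dim probe at -1.12, does not. A match is a description of the sequence and not of binding.

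Markers of cell types changed on the same arrays. All 9 mesenchymal progenitor markers were well above background on all 4 arrays, with a summed signal (in units of the 75th percentile of the array) of 1124 in the control and 831 to 934 in OSKM-CMPs. At day 8, 7 of the 9 were lower than in the control, against 8620 of all 16657 genes. The median change of the 9 was -0.54. Thy1 (-1.78 ± 0.20), Itgb1 (-1.35 ± 0.14) and Eng (-1.19 ± 0.20) were at least 2-fold lower, while Ly6a, which encodes Sca-1, was higher by 2.69 ± 0.20. The summed signal of 7 adipocyte markers was 2.50, 19.5, 129 and 323 on the 4 arrays, with 2, 6, 6 and 7 of them above background. The sums of leukocyte markers were 1.15 to 1.22 (Laptm5 at background throughout), of endothelial markers 1.88 in the control and 1.06 to 1.18 later, and of pluripotent cell markers 0.89 to 1.07 (Zfp42 at background throughout). Bright probes weigh most in such sums. In the endothelial list, Kdr gave 53.6% of the control sum and changed by -0.27 ± 0.17 at day 8. The median change of the 5 endothelial markers was larger, -2.70. Tek changed by -2.70 ± 0.27 and Pecam1 by 0.10 ± 0.22, a value within its error. Cdh5 (-5.47 ± 1.46) and Emcn (-3.52 ± 0.74) were at background in all OSKM-CMP samples, so the size of their falls is uncertain. The sum of the cardiomyocyte markers was 11.9 in the control and 4.13 to 6.70 later. In the control, 99.0% of it came from Tnnt2, which changed by -1.60 ± 0.20 at day 8. Of the other 4 measured cardiomyocyte markers, Myh6 and Tnni3 were well above background at day 8 and not in the control, Ryr2 was so on the day 4 and 6 arrays alone, and Nppa changed by 0.10 ± 0.31, a value within its error that is negative with the array median as the scale (Actn2 at background throughout). The part of these changes in the mitotic values was not tested.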

How the data were processed

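RNA of 4 samples (CMP control and OSKM-CMPs at days 4, 6 and 8, 250 ng each per the labels) was measured on SurePrint G3 Mouse GE arrays. The deposited scanner files hold, per the file headers from Feature Extraction 10.7.3.1 (9.5.3 in the submitters' processing notes), the background-subtracted Cy3 signal intensity of each of 62976 spots, with an error estimate and quality flags. The log2 table that the authors normalized with GeneSpring has values equal to those used here apart from a constant for each array of 0.0037 to 0.0072.

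From the deposited intensities, 3671 control spots and 87 to 106 outlier spots per array were left out, no spot was saturated, spots of a probe were averaged as log2, and the 75th percentile of the array (a signal of 388 to 411) was subtracted. The median SD between spots of a probe was 0.06 to 0.07. Of the probes, 56.6% to 59.6% were well above background on an array, and a probe had to be so on at least 1. Arrays have no read depth, and their number limits the precision. Members took the symbols of the files, and other genes the RefSeq symbols of GRCm38.p6, matched for 31219 probes. With 1 array per condition no test was made. The members and lists were chosen with earlier results of these data known. Named genes are, per role, the 3 members with the largest falls and the 1 with the smallest, among those above background on all arrays. Also named are members with no probe well above background on some array, with discordant probes or not lower at day 8, and the extremes of the other lists. A few further members are named that were chosen after their values were seen. The pipeline was tested on simulated data. The alternatives were normexp (offset 50) with quantile normalization (limma 3.58.1), quantile normalization alone, the array median, the authors' values, no filter, a filter on all 4 arrays, a floor and the brightest probe. Python 3.11.15, pandas 2.3.3, numpy 2.4.6, matplotlib 3.10.9 and R 4.3.3 were used.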

Additional observations from a re-analysis of the deposited data

How the results depend on the processing

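None of the recomputed medians, counts or day 8 values of named genes changed direction under the 8 alternatives once the shift of all genes with the array median was taken out; before that, Pcnt at day 8 and Cdc25b at day 4, both within their error, turned lower. Of 216 recomputed medians and counts, 179 stayed within the spread between spots (0.09 on the log2 scale for a median, 4.11 percentage points for a share) or within 1.5 times for a count, and 37 moved further. Of 439 recomputed values of single named genes, 98 moved further. With the array median, a median or a single value could not move once the shift was taken out. With the authors' values it could hardly move, since they differ from those used here by a constant for each array. Both settings are included in these totals. Normexp with quantile normalization gave medians of -1.06 (all members at day 4), -1.54 (all members at day 6), -1.99 (all members at day 8), -1.99 (Cdk1 and cyclins), -2.60 (kinases and passenger complex), -1.91 (checkpoint), -2.07 (anaphase), -2.60 (kinetochore), -1.96 (kinesins), -1.88 (spindle-associated proteins), -2.13 (cytokinesis), -1.34 (chromosome structure), -1.06 (the step from control to day 4), -0.44 (the step from day 4 to day 6), -0.46 (the step from day 6 to day 8), -0.98 (other kinetochore genes), -1.39 (other spindle genes), -0.15 (anaphase-promoting complex), -1.05 (condensin II), -1.71 (inhibitory kinases of Cdk1) and -1.41 (replication), and with its offset of 50 it compresses changes of dim probes. Quantile normalization alone gave -2.16 (cytokinesis), -1.54 (chromosome structure) and -1.46 (other kinetochore genes). No filter on dim probes gave -2.71 (kinases and passenger complex), -1.70 (kinetochore), -1.50 (other kinetochore genes), -1.84 (other spindle genes) and -0.25 (anaphase-promoting complex). A filter on all 4 arrays gave -2.36 (checkpoint) and -1.84 (other spindle genes), and the brightest probe of a gene -2.41 (all members at day 8), -2.79 (kinases and passenger complex), -1.44 (other kinetochore genes), -1.84 (other spindle genes), -0.50 (anaphase-promoting complex) and -0.23 (cohesin). Where no cause is given, the cause was not tested. With the array median as the scale, values were taken relative to its shift of all genes. Members at least 2-fold lower at day 8 numbered 48 to 52 over the alternatives. No paired analysis was possible because there was 1 array a condition. The error given for a gene covers the array only, and dim members such as Cenpf, Ncapg and Ttk are the least certain.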
